A study of Mus musculus with 16 samples.

Results

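The data cover 9 genes of steroid signalling in murine tracheal epithelial cells (MTECs), out of 49315 gene identifiers in the count table. They are the estrogen receptors Esr1 and Esr2, the glucocorticoid receptor Nr3c1, the mineralocorticoid receptor Nr3c2, the steroid-converting enzymes Hsd11b1, Hsd11b2, Hsd17b11 and Srd5a1, and the receptor co-chaperone Fkbp5. They were taken from a list of names that uses no measured value, drawn up with earlier results of these data known. MTECs are primary cells from the mouse trachea that differentiate into an airway epithelium with air above and medium below. Cultures came from female (F) and male (M) mice of a C57BL/6J background, either wild type (WT) or labelled knockout (KO) for LMAN1, a lectin that carries glycoproteins out of the endoplasmic reticulum. They were left naive or exposed overnight to house dust mite (HDM) extract at 20 µg/ml, and each of the 8 combinations has 2 libraries. The age of the donor mice is not given in the sources used here, tracheas were pooled to seed the cultures, and the inserts were coated with basement membrane made by a mouse fibroblast line.

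Steroid hormones enter cells and bind receptors that act as transcription factors. Glucocorticoids acting on Nr3c1 restrain airway inflammation and are the mainstay of asthma treatment, whereas Nr3c2 is known for controlling sodium transport in epithelia. The 2 receptors share ligands, and enzymes set how much ligand reaches them: Hsd11b1 makes active glucocorticoid from its inert keto form, and Hsd11b2 does the reverse and so shields Nr3c2 from glucocorticoid. Srd5a1 is a 5-alpha reductase that converts testosterone into dihydrotestosterone. Hsd17b11 is a dehydrogenase of 17-beta hydroxysteroids that sits on lipid droplets. Fkbp5 binds Hsp90 in receptor complexes, lowers their affinity for hormone, and is itself a classic glucocorticoid-induced gene.

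In females, HDM was accompanied by opposite shifts among these genes. Transcripts of both corticosteroid receptors were lower in F WT HDM cultures than in F WT naive cultures, and the low-abundance transcripts of Esr1, Hsd11b1 and Hsd11b2 were higher. In F KO cultures 1 of the 8 tested genes passed the test, and in males none did. Over all genes tested, 43.1% passed in F WT, 10.4% in F KO and 0.0% in both male responses.

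Stretches of promoter are shown for the 2 genes that fell in F WT HDM cultures and for which a stretch free of annotated exons could be read, and for Fkbp5 as the glucocorticoid-induced member. They are from RefSeq on GRCm38.p6, read on the gene's strand and cut back to the bases that lie in no annotated exon. Entries were found for Esr1, Esr2, Nr3c2, Hsd11b1, Hsd17b11, Srd5a1 and Fkbp5. Capitals mark the letters TGACC or their complement, one arm of the palindromic estrogen response element. The Nr3c2 stretch is chr8:76902080-76902287 on the plus strand, the Hsd17b11 stretch is chr5:104021920-104022046 on the minus strand, and the Fkbp5 stretch is chr17:28486150-28486399 on the minus strand. The Nr3c2 and Fkbp5 stretches lie within the annotated spans of these genes, and the Hsd17b11 stretch directly before the span of its gene.
Nr3c2: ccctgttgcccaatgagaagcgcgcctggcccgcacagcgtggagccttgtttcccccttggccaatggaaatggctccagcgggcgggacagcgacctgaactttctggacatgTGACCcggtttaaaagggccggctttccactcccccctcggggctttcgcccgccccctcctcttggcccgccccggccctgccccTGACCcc
Hsd17b11: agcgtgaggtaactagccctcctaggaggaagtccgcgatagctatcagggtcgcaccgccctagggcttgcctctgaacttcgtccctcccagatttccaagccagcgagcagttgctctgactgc
Fkbp5: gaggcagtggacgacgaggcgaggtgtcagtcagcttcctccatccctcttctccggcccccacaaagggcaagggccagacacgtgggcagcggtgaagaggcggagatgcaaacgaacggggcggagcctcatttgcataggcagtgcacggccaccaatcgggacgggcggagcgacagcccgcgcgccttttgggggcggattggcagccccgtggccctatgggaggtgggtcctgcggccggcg

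The Nr3c2 stretch of 208 bases held 2 matches to TGACC, letters that 30.5% of 32851 promoter windows of that length hold on either strand. The Hsd17b11 stretch of 127 bases held none, where 19.7% of windows of that length do. The Fkbp5 stretch of 250 bases held none either, where 35.2% do. Stretches that are not shown could also be read for Esr1 and Esr2. That of Esr1, 247 bases, held no match to TGACC, and that of Esr2, 250 bases, held 2. The letters AGAACA, one arm of the palindromic glucocorticoid response element, were searched on both strands too and were absent from all 3 stretches shown. Among windows of 208, 127 and 250 bases, 13.7%, 8.82% and 16.1% hold them. Such matches describe letters in these windows and say nothing on binding.

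Total counts per library ranged from 21860698 to 43442188, and 15993 genes passed the filter on low counts and were tested. Lman1 itself lay at 101 to 144 CPM (counts per 1000000, scaled by TMM factors) in the WT libraries and at 12.8 to 78.1 CPM in the libraries labelled KO. In 5 of those 8 libraries, both F KO HDM, both M KO HDM and M KO naive replicate 2, it lay at 52.6 to 64.8% of the WT mean, against at most 11.8% in the other 3. Both libraries of F KO HDM and both of M KO HDM are among the 5, so no comparison with either group can be made without them. Both F KO naive libraries are among the other 3, so in F KO cultures HDM and Lman1 level cannot be told apart. Summed Y-linked transcripts were at 148 to 184 CPM in libraries labelled male and at most 2.87 CPM in those labelled female. The 7 epithelial markers summed to between 6289 and 10780 CPM in each library, and Cd3e, a T cell marker, was at the floor in every group. Markers of several cell types moved with the F WT HDM libraries. The 6 basal markers summed to 10300 and 11170 CPM in F WT naive and to 4007 and 2000 CPM in F WT HDM libraries, and 5 of the 6 were called lower (edgeR, median log2 fold change -2.61). All 7 secretory markers were called lower there (median -5.34), as were 4 of 8 ciliated markers and 2 of 5 tested immune markers. Of the 7 epithelial markers, 5 were called higher there and 1 lower. The 8 ciliated markers summed to 112 and 143 CPM in F WT naive and 103 and 115 CPM in F WT HDM libraries. The 8 immune markers summed to 266 and 221 CPM in F WT naive and 100 and 95.2 CPM in F WT HDM libraries. Their part in the results on F WT HDM cultures was not tested. In bulk cultures, fewer cells of a type and less RNA per cell cannot be told apart.

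Compared per kilobase of annotated exon, the 9 genes differed widely in mean level over the 16 libraries. Hsd17b11 averaged 21.5 CPM per kilobase, Srd5a1 12.4, Nr3c1 10.4 and Nr3c2 7.43. Fkbp5 averaged 0.946 CPM per kilobase, Hsd11b2 0.437, Hsd11b1 0.229, Esr1 0.136 and Esr2 0.0161. Over single libraries the 4 most abundant ranged from 15 to 25.9 for Hsd17b11, 8 to 17.2 for Srd5a1, 6.9 to 13 for Nr3c1 and 3.2 to 10.3 for Nr3c2, each overlapping with the next. Fkbp5, at 0.57 to 1.39, lay below all of these, and overlapped with Hsd11b2 at 0.19 to 1.57. Hsd11b2 overlapped in turn with Hsd11b1 at 0.06 to 0.793, and Hsd11b1 with Esr1 at 0.083 to 0.274. Esr2 reached 0.0787 at most, below Esr1.

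Esr2, which encodes estrogen receptor beta, was at the detection floor. It lies on chromosome 12, 76120419 to 76177259, minus strand. A floor of 3 counts per library, which a count of 0 still allows, corresponded to 0.0674 to 0.142 CPM. Esr2 had 3 counts or fewer in 13 of 16 libraries, none in 6 of them and 8 at most. It did not pass the filter and was not tested. The 3 libraries above the floor were F WT HDM replicate 2 at 0.189 CPM, M WT naive replicate 1 at 0.265 CPM and M WT HDM replicate 1 at 0.158 CPM, while the other library of each of these groups had 0. The other 8 genes lay above 3 counts in every library, with the lowest counts at 7 for Hsd11b1 and 10 for Hsd11b2. The floor covers counting error alone, because no molecular identifiers are known for these reads.

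**Figure D1:**
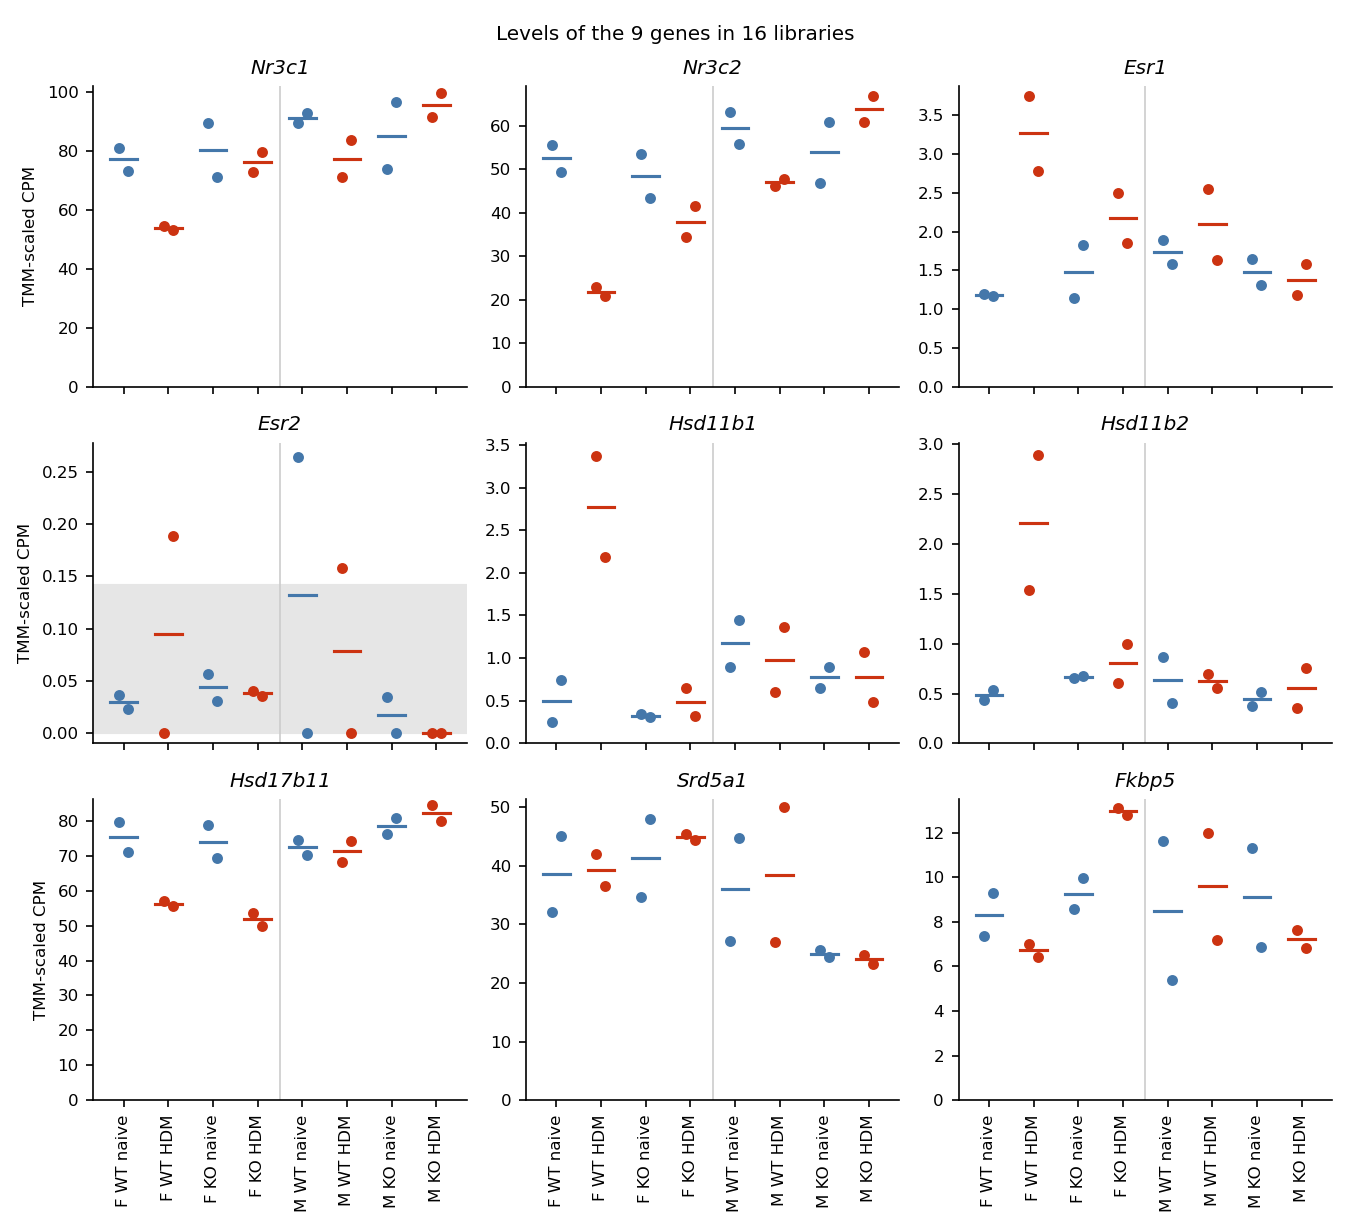
TMM-scaled CPM of the 9 genes (vertical axes from 0, one scale per gene) in the 8 groups. Points are the 2 libraries of a group, bars their mean, blue naive and red HDM, and the grey band in the Esr2 panel is the highest floor, 0.142 CPM. The F WT HDM libraries are the lowest for Nr3c1 and Nr3c2 and the highest for Esr1, Hsd11b1 and Hsd11b2.

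Nr3c2, the mineralocorticoid receptor, responded to HDM in F WT cultures with the smallest p of the 9 genes. It lies on chromosome 8, 76899442 to 77245012, plus strand. Its level was 55.5 and 49.4 CPM in the 2 F WT naive libraries and 22.8 and 20.8 CPM in the F WT HDM libraries. In F KO cultures it was 53.5 and 43.4 CPM when naive and 34.3 and 41.5 CPM with HDM. Male libraries lay at 63.1 and 55.8 CPM (M WT naive), 46.2 and 47.7 CPM (M WT HDM), 46.8 and 60.9 CPM (M KO naive) and 60.9 and 66.8 CPM (M KO HDM). Both F WT HDM libraries, the same 2 in which basal and secretory markers were lower, were thus below each of the other 14, and within WT males and KO females the HDM libraries also lay below the naive ones. The log2 fold change with HDM in F WT was -1.27 (SE 0.147, edgeR quasi-likelihood adjusted p = 5.15e-05). In F KO it was -0.35, with an adjusted p of 0.143 in the same test. Nr3c2 shares 247 exon bases, 3.82% of its exon length, with Gm10649 on the opposite strand, which had 129 counts in all libraries together.

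Nr3c1, the glucocorticoid receptor, showed a smaller change in the same direction. It lies on chromosome 18, 39410545 to 39519421, minus strand. It was at 80.9 and 73.2 CPM in F WT naive and 54.4 and 53.0 CPM in F WT HDM libraries. F KO libraries lay at 89.5 and 71.2 CPM (naive) and at 72.8 and 79.4 CPM (HDM), and males ranged from 71.2 CPM in M WT HDM replicate 1 to 99.6 CPM in M KO HDM replicate 2. Again the F WT HDM libraries, with their lower basal and secretory markers, were the lowest of the 16. The log2 fold change with HDM in F WT was -0.52 (SE 0.136, edgeR adjusted p = 0.00939). The call rested on single libraries, since the adjusted p was 0.066 without F WT naive replicate 1 and 0.0562 without F WT HDM replicate 2. Over the 16 libraries, log2 CPM of Nr3c1 and Nr3c2 had a Pearson r of 0.94, a description over libraries that share groups.

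Esr1, estrogen receptor alpha, rose in F WT cultures from a low level. It lies on chromosome 10, 4611593 to 5005614, plus strand. It was at 1.20 and 1.17 CPM in F WT naive and at 3.75 and 2.79 CPM in F WT HDM libraries. F KO libraries were at 1.14 and 1.83 CPM when naive and 2.5 and 1.86 CPM with HDM, and male libraries ranged from 1.18 to 2.55 CPM. The F WT HDM libraries were the highest of the 16, and the next was M WT HDM replicate 1. The log2 fold change in F WT was 1.47 (SE 0.319, edgeR adjusted p = 0.00328), and the call held when any of the 16 libraries was left out.

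Both 11-beta dehydrogenases, which act on glucocorticoid in opposite directions, rose in F WT cultures. Hsd11b1 lies on chromosome 1, 193221634 to 193264075, minus strand. It was at 0.254 and 0.742 CPM in F WT naive and at 3.37 and 2.18 CPM in F WT HDM libraries. In the other 12 libraries it ranged from 0.310 CPM in F KO naive replicate 2 to 1.45 CPM in M WT naive replicate 2, so the F WT HDM libraries did not overlap with any other. The log2 fold change was 2.41 (SE 0.565, edgeR adjusted p = 0.00508). Hsd11b1 lies wholly within the span of Lamb3, a laminin gene on the opposite strand, and shares no annotated exon base with it. Lamb3 was at 194 and 260 CPM in F WT naive, 632 and 539 CPM in F WT HDM and 386 and 385 CPM in F KO HDM libraries. Whether reads of Lamb3 introns were counted for Hsd11b1 was not tested, and the sources used here do not state whether counting used strand.

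Hsd11b2 lies on chromosome 8, 105518755 to 105523988, plus strand. It was at 0.436 and 0.539 CPM in F WT naive and at 1.54 and 2.89 CPM in F WT HDM libraries. The other 12 libraries lay between 0.357 and 1.00 CPM, all below both F WT HDM libraries. The log2 fold change was 2.15 (SE 0.465, edgeR adjusted p = 0.00312). The 2 F WT HDM libraries ranked in opposite orders for the 2 enzymes, replicate 1 being the higher for Hsd11b1 and replicate 2 for Hsd11b2. The calls of both enzymes in F WT held when any 1 library was left out. Beside these rises, 5 smooth muscle markers summed to 60.3 and 146 CPM in F WT naive and to 284 and 463 CPM in F WT HDM libraries, while edgeR called 0 of the 4 tested singly, with 1, Acta2, at an unadjusted p under 0.05 (median 0.05). The 8 fibroblast markers, none at the floor there, summed to 29.3 and 577 CPM in F WT naive replicates 1 and 2, and to 48.9 and 606 CPM in F WT HDM replicates 1 and 2. Of the 2 F WT HDM libraries, Hsd11b1 was higher in the one with the lower fibroblast sum and Hsd11b2 in the one with the higher sum. In every other group Hsd11b1 was higher in the library with the higher fibroblast sum. In M WT HDM replicates 1 and 2 it was at 0.599 and 1.36 CPM, beside sums of 3.18 and 44.1 CPM. Hsd11b2 went either way in the other groups. Of the 8 fibroblast markers, 2 were called higher with HDM in F WT (edgeR, median 0.70). The part of these markers in the results was not tested.

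Of the 8 tested genes, Hsd17b11 alone was called in both female HDM responses. It lies on chromosome 5, 103989762 to 104021919, minus strand. In F WT it went from 79.7 and 71.1 CPM to 57.1 and 55.6 CPM, and in F KO from 78.8 and 69.4 CPM to 53.7 and 50 CPM. All 4 female HDM libraries lay below the other 12, where the lowest was M WT HDM replicate 1 at 68.4 CPM. The log2 fold change was -0.42 in F WT (SE 0.083, edgeR adjusted p = 0.00183) and -0.52 in F KO (SE 0.083, edgeR adjusted p = 0.00336). Without F KO HDM replicate 2 the adjusted p in F KO was 0.0504. Markers of secretory cells fell beside it: 7 of them summed to 17440 and 13190 CPM in F WT naive and 4656 and 3766 CPM in F WT HDM libraries, with Scgb1a1 at the floor in the latter group. In F KO they summed to 15970 and 13200 CPM when naive and 7880 and 7232 CPM with HDM, with Bpifb1 at the floor. The part of this in the fall of Hsd17b11 was not tested.

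Srd5a1 and Fkbp5 did not pass the test for an HDM response in any sex or genotype in the fit of all 16 libraries. With only the compared libraries in the fit, Fkbp5 was called in F KO. Srd5a1 lies on chromosome 13, 69573449 to 69611442, minus strand, and shares 476 exon bases, 16.4% of its exon length, with Gm17108 on the same strand, so its counts are less certain. It also lies wholly within the span of Nsun2 on the opposite strand, and shares no annotated exon base with it. Nsun2 ranged from 124 to 159 CPM, and whether reads of its introns were counted for Srd5a1 was not tested. Srd5a1 was at 32.1 and 45.1 CPM in F WT naive and 42.0 and 36.5 CPM in F WT HDM libraries. In F KO it was at 34.7 and 48.0 CPM when naive and 45.4 and 44.4 CPM with HDM. M WT libraries split by replicate number, at 27.2 and 27.0 CPM in replicate 1 of naive and HDM and 44.8 and 50 CPM in replicate 2, and M KO libraries lay together at 23.3 to 25.6 CPM. Fkbp5 lies on chromosome 17, 28399094 to 28517527, minus strand. It was at 7.34 and 9.28 CPM in F WT naive, 6.99 and 6.44 CPM in F WT HDM, 8.55 and 9.94 CPM in F KO naive and 13.1 and 12.8 CPM in F KO HDM libraries. Male libraries held 11.3 to 12.0 CPM of Fkbp5 in replicate 1 of M WT naive, M WT HDM and M KO naive and 5.38 to 7.63 CPM in the other 5. For Srd5a1 the 2 M WT HDM libraries lay further apart than the highest and lowest group means, 44.9 ± 0.679 CPM in F KO HDM and 24.0 ± 1.05 CPM in M KO HDM (SD, n = 2).

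In all, 6 of the 8 tested genes were called in the HDM response of F WT cultures, 3 higher and 3 lower, against 43.1% of all 15993 genes, 20.6% higher and 22.4% lower. Responses were broad in this group, so the members' share has to be read against a wide background. In F KO cultures 1 of 8 was called, lower, against 10.4% of all genes, of which 4.63% were higher and 5.77% lower. In M WT and M KO cultures 0 of 8 were called by edgeR and 0 by DESeq2. At an unadjusted p under 0.05 there was 1 in M WT, Nr3c2, and 0 in M KO. The background there was 0.0% for M WT, with 665 genes at an unadjusted p under 0.05, and 0.0% for M KO, with 857. DESeq2 called 1 gene in each.

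**Figure D2:**
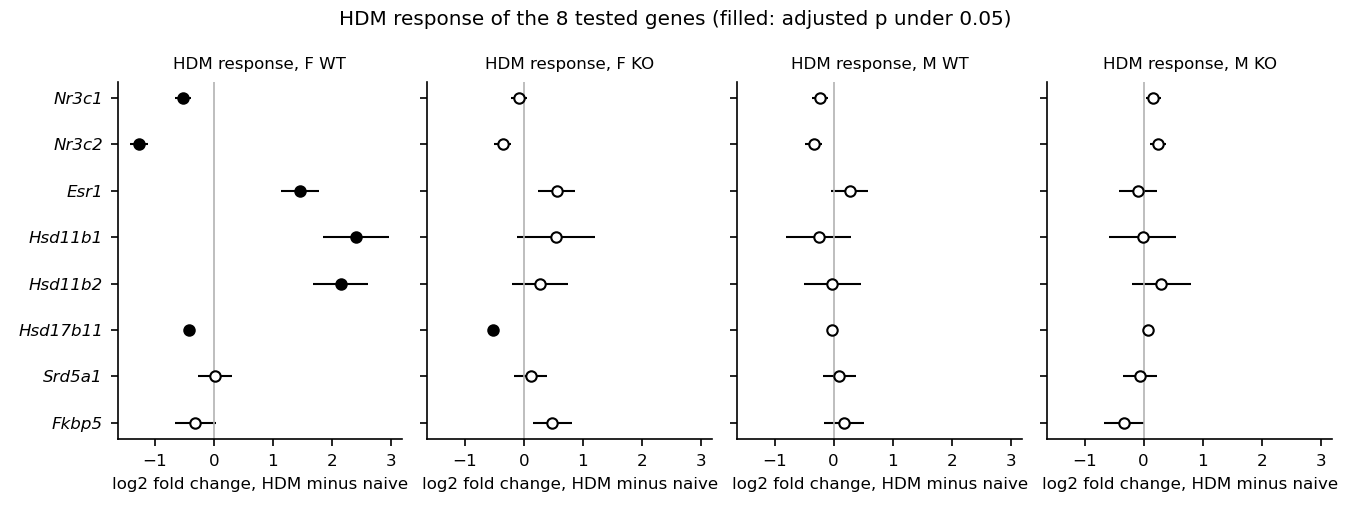
Log2 fold change of HDM over naive (horizontal axis) with its standard error for the 8 tested genes in F WT, F KO, M WT and M KO cultures, 2 libraries per group. Filled points passed an edgeR adjusted p under 0.05: 6 genes in F WT, from -1.27 for Nr3c2 to 2.41 for Hsd11b1, and Hsd17b11 at -0.52 in F KO.

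Whether the response differed between the sexes was tested directly. Among WT cultures the difference of F and M responses passed for 4 of the 8 genes, against 24.2% of all genes. Nr3c2 fell by 0.92 more on the log2 scale in females (edgeR adjusted p = 0.00714), and this call held without any 1 library. Hsd17b11 differed by -0.40 (edgeR adjusted p = 0.0286), Hsd11b1 by 2.66 (adjusted p = 0.0291) and Hsd11b2 by 2.17 (adjusted p = 0.0347). These last 3 calls were fragile. For Hsd17b11 the adjusted p was 0.0917, 0.087, 0.119 and 0.0884 without M WT naive replicate 2, M WT HDM replicate 2, F WT naive replicate 1 and F WT HDM replicate 2. For Hsd11b1 it was 0.105, 0.0865, 0.1 and 0.0804 without M WT naive replicate 2, M WT HDM replicate 1, F WT naive replicate 1 and F WT HDM replicate 1. For Hsd11b2 it was 0.163, 0.0611 and 0.091 without M WT naive replicate 1, M WT HDM replicate 1 and M WT HDM replicate 2. It was 0.108, 0.0693, 0.139, 0.0509 and 0.0508 for Hsd11b2 without F WT naive replicate 1, F WT naive replicate 2, F WT HDM replicate 2, F KO naive replicate 1 and F KO naive replicate 2. With only the compared libraries in the fit, adjusted p was 0.0624 for Hsd17b11, 0.0701 for Hsd11b1 and 0.0711 for Hsd11b2. Esr1, called in F WT and not in M WT, did not pass the test of the difference itself, with an edgeR adjusted p of 0.0718.

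Among KO cultures the response differed between the sexes for 1 of 8 genes, against 3.56% of all genes. It was Hsd17b11, at -0.58 (edgeR adjusted p = 0.0223). The adjusted p was 0.0875, 0.0953, 0.0814, 0.124 and 0.11 without M KO naive replicate 1, M KO HDM replicate 1, M KO HDM replicate 2, F KO naive replicate 1 and F KO HDM replicate 2. Without M KO naive replicate 2, the naive library whose Lman1 was at the level of the M KO HDM libraries, 2 members were called.

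Between genotypes the response of females differed for 1 of 8 genes, Nr3c2, against 11.2% of all genes. Its response was 0.91 higher in the libraries labelled KO on the log2 scale (edgeR adjusted p = 0.0187), that is, it fell less there. The adjusted p was 0.0751, 0.082, 0.081 and 0.0832 without F WT naive replicate 1, F WT HDM replicate 2, F KO naive replicate 2 and F KO HDM replicate 2. Without F WT HDM replicate 1, 2 members were called. Nr3c1 (adjusted p = 0.155), Esr1 (adjusted p = 0.208), Hsd11b1 (adjusted p = 0.185) and Hsd11b2 (adjusted p = 0.0885), called in F WT and not in F KO, did not pass edgeR's test of the difference between genotypes. Lman1 was at 12.8 CPM in both F KO naive libraries and at 66.6 and 78.1 CPM in the F KO HDM libraries. HDM and Lman1 level thus cannot be told apart in the F KO response. In males edgeR and DESeq2 each called 0 of 8 members and edgeR 0.0% of all genes, with 1 member, Nr3c2, and 1388 genes at an unadjusted p under 0.05.

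The sexes were also compared at a fixed genotype and treatment. In naive cultures edgeR and DESeq2 called 0 of 8 members in WT and in KO, where edgeR called 0.1% and 0.188% of all genes. DESeq2 called 193 and 210 genes there. At an unadjusted p under 0.05 there were 0 members in WT and 1 in KO, Srd5a1. Under HDM, 5 of 8 differed between F WT and M WT cultures, against 41.6% of all genes, with 2 higher in females (background 20.3%) and 3 lower (background 21.3%). The corticosteroid receptors were lower in females, Nr3c2 by a log2 fold change of -1.11 (edgeR adjusted p = 0.000135) and Nr3c1 by -0.53 (adjusted p = 0.00919), while Esr1 did not pass (adjusted p = 0.117). Hsd17b11 was lower too, at -0.34 (edgeR adjusted p = 0.00656). Hsd11b2 was higher in females at 1.81 (edgeR adjusted p = 0.00798) and Hsd11b1 at 1.5 (adjusted p = 0.0427). Nr3c2 and Hsd17b11 kept their call without any 1 library. The adjusted p of Nr3c1 was 0.0705 without M WT HDM replicate 2 and 0.0579 without F WT HDM replicate 2, and that of Hsd11b2 was 0.0553 and 0.0907 without the same 2 libraries. That of Hsd11b1 was 0.231, 0.196, 0.0608, 0.0593 and 0.0592 without M WT HDM replicate 1, F WT HDM replicate 1, F WT HDM replicate 2, F KO naive replicate 1 and F KO naive replicate 2, and 0.0792 with only the compared libraries in the fit. Basal (5 of 6) and secretory (6 of 7) markers were called lower in F WT HDM than in M WT HDM libraries, and 3 of 8 fibroblast markers higher. Their part in these differences was not tested. This comparison and the F WT response share the F WT HDM libraries.

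Between F KO and M KO cultures under HDM, 3 of 8 differed, against 25.3% of all genes, with 1 higher in females (background 12.4%) and 2 lower (background 12.9%). Nr3c2 was lower in females by a log2 fold change of -0.75 (edgeR adjusted p = 0.00306) and Hsd17b11 by -0.67 (adjusted p = 0.000285), and both kept their call without any 1 library. Srd5a1 was higher in females at 0.90 (edgeR adjusted p = 0.0407), with 45.4 and 44.4 CPM in F KO HDM against 24.8 and 23.3 CPM in M KO HDM libraries. Its adjusted p was 0.131, 0.186, 0.137 and 0.118 without M KO HDM replicate 1, M KO HDM replicate 2, F KO HDM replicate 1 and F KO HDM replicate 2. Of 6 tested squamous markers 4 were called higher in females (edgeR, median 1.36), and the 7 listed summed to 1163 to 1500 CPM in F KO HDM and 271 to 275 CPM in M KO HDM libraries. Of 7 secretory markers 6 were called lower (median -4.01). Of 6 basal markers 1, Krt14, was called higher, and their median was -0.09. The part of these markers in the differences was not tested. Fkbp5 was 0.84 higher in females without passing the test (edgeR adjusted p = 0.0931), although its libraries did not overlap, and passed it without M WT naive replicate 1 (0.0405) or M WT naive replicate 2 (0.0402).

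Genotypes were compared within each sex and treatment. In naive cultures edgeR and DESeq2 called 0 of 8 members in F and in M. By edgeR, 0.0% of all genes were called in both sexes, with no member at an unadjusted p under 0.05 and 203 and 867 genes below it. DESeq2 called 1 gene in F and 0 in M. Under HDM, 4 of 8 differed between F KO and F WT cultures, against 29.2% of all genes. In the libraries labelled KO, 2 were higher (background 14.9%) and 2 lower (background 14.3%). Nr3c2 was higher by 0.80 (edgeR adjusted p = 0.00268), a call that held without any 1 library, and Nr3c1 by 0.50 (adjusted p = 0.0177). Hsd11b1 was lower at -2.53 (edgeR adjusted p = 0.00855) and Hsd11b2 at -1.44 (adjusted p = 0.0335). The signs were thus opposite to those of the HDM response of F WT cultures, with which this comparison shares the F WT HDM libraries. Nr3c1 had an adjusted p of 0.107 without F WT HDM replicate 2 and 0.114 without F KO HDM replicate 2. Hsd11b1 had 0.0912 without F KO HDM replicate 2. Hsd11b2 had 0.283, 0.175 and 0.0716 without F WT HDM replicate 2, F KO HDM replicate 1 and F KO HDM replicate 2, and 0.0564 with only the compared libraries. Beside these genes, 5 of 6 basal markers (median 2.68) and 5 of 7 secretory markers (median 1.44) were called higher in the libraries labelled KO and 3 of 8 fibroblast markers lower (median -2.65). Their part in these differences was not tested.

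Fkbp5 sat just outside the threshold in that comparison. Its level was 13.1 and 12.8 CPM in F KO HDM and 6.99 and 6.44 CPM in F WT HDM libraries, a log2 fold change of 0.95 (SE 0.346, edgeR adjusted p = 0.0595). DESeq2 called it, at an adjusted p of 0.0311. It also passed in edgeR without any 1 of 6 male libraries, at 0.0237 without M WT naive replicate 1 or 2, 0.0452 and 0.0451 without M WT HDM replicate 1 or 2, and 0.0457 without M KO naive replicate 1 or 2. Those libraries are not themselves part of this comparison. With only the 4 compared libraries in the fit, its adjusted p was 0.009. In males under HDM, edgeR and DESeq2 called 0 of 8 members between genotypes and edgeR 0.0% of all genes, with 4 members, Nr3c1, Nr3c2, Hsd17b11 and Srd5a1, and 2897 genes at an unadjusted p under 0.05. DESeq2 called 508 genes there. Nr3c2 had the smallest p of the 4, at 60.9 and 66.8 CPM in M KO HDM against 46.2 and 47.7 CPM in M WT HDM libraries (log2 fold change 0.44, edgeR adjusted p = 0.182). Lman1 lay at 65 and 66 CPM in these M KO HDM libraries and at 111 and 144 CPM in the M WT HDM libraries.

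**Figure D3:**
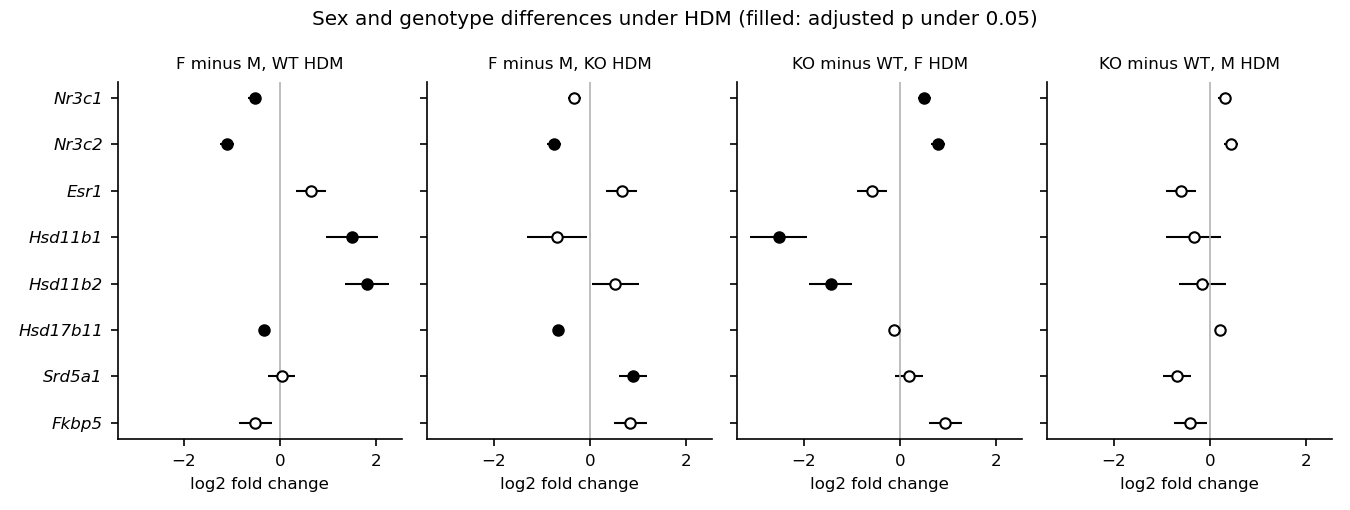
Log2 fold change (horizontal axis) with its standard error for the 8 tested genes in HDM cultures, between the sexes (F minus M, in WT and KO) and between genotypes (KO minus WT, in F and M), with 2 libraries per group. Filled points passed an edgeR adjusted p under 0.05: 5 genes between F WT and M WT, 3 between F KO and M KO, 4 between F KO and F WT and 0 between M KO and M WT.

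Other genes of steroid signalling were followed in lists, chosen with earlier results of these data known. Of all genes tested, 43.1% were called in the HDM response of F WT and 10.4% in that of F KO. Counts of the lists have to be read beside these shares. Among 7 tested receptors of other steroids, 2 rose and 3 fell in F WT cultures with HDM, and 2 rose and 1 fell in F KO. Pgrmc1, a progesterone-binding membrane protein, fell by 0.82 in F WT (edgeR adjusted p = 0.000189) and by 0.63 in F KO (adjusted p = 0.00572). Gper1, a membrane receptor that binds estrogen, fell in F WT (edgeR adjusted p = 0.00573) from 9 and 35 counts, or 0.327 and 0.787 CPM, to 1 count in each F WT HDM library, below the floor, so no fold is given.

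Of 10 receptor coregulators, 0 rose and 6 fell in F WT, and 0 passed in F KO by edgeR, where 2 had an unadjusted p under 0.05. Of all genes, 20.6% rose and 22.4% fell in F WT, and 4.63% rose and 5.77% fell in F KO. Ncoa1, a coactivator of steroid receptors, fell by 1.51 on the log2 scale (edgeR adjusted p = 0.000207), the acetyltransferase Ep300 by 0.63 (adjusted p = 0.00512) and Ncoa3 by 0.39 (adjusted p = 0.00776). Between F KO and F WT under HDM, 7 of the 10 were higher in the libraries labelled KO and 0 lower, beside 14.9% higher and 14.3% lower of all genes. Of 10 chaperones of the receptor complex, 5 rose and 3 fell in F WT and 1 rose in F KO. The changes were small, from 0.78 for Hsp90aa1 (edgeR adjusted p = 5.75e-05) to -0.30 for the phosphatase Ppp5c (adjusted p = 0.0138), with Hspa8 at 0.31 (adjusted p = 0.0163). Hsp90aa1 also rose in F KO, by 0.41 (edgeR adjusted p = 0.0164).

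Further lists held enzymes that inactivate or modify steroids, to be read beside 43.1% of all genes called in F WT and 10.4% in F KO. Of 16 tested dehydrogenases and reductases, from a list of 25, 6 fell and 2 rose in F WT, and 5 fell and 0 rose in F KO. Akr1c18, which inactivates progesterone, fell by 4.43 in F WT (edgeR adjusted p = 1.49e-07) and by 1.93 in F KO (adjusted p = 0.000256). It went from 97.6 and 103 CPM to 3.5 and 5.87 CPM in F WT and from 102 and 97.7 CPM to 29.5 and 23.2 CPM in F KO, while male libraries lay between 57.8 and 82.7 CPM. In F WT, Akr1c14 fell by 2.41 (edgeR adjusted p = 6.93e-06). Hsd17b2, which oxidises estradiol and testosterone, fell by 3.93 there (edgeR adjusted p = 0.000182), to 4 and 1 counts per library, which leaves its fold uncertain. In F KO, Akr1c14 fell by 0.64 (edgeR adjusted p = 0.0495) and Hsd17b2 by 2.37 (adjusted p = 0.00849). Hsd17b2 had 4 and 11 counts in the F KO HDM libraries, so its fold is uncertain there too. Of 8 tested conjugating enzymes, 6 fell and 1 rose in F WT and 3 fell in F KO. In F WT the sulfotransferase Sult1d1 fell by 6.12 (edgeR adjusted p = 1.36e-06), to 4 and 6 counts, and the glucuronosyltransferases Ugt1a7c and Ugt1a6a fell by 2.89 (adjusted p = 2.91e-06) and 2.46 (adjusted p = 0.000304). The Ugt1a transcripts share their 3' exons, so counts may be split among them. The secretory markers given above fell in the same libraries, and their part in these changes was not tested.

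Of 17 enzymes of steroid synthesis, 9 did not pass the filter, among them Cyp11a1, Cyp17a1 and Cyp19a1, which make pregnenolone, androgen precursors and estrogen. Of the 8 tested, 1 rose and 1 fell in F WT and 1 fell in F KO, against 43.1% and 10.4% of all genes called. Fdx1, which feeds electrons to mitochondrial cytochromes P450, fell by 0.80 in F WT (edgeR adjusted p = 0.000147) and by 0.55 in F KO (adjusted p = 0.00878). Cyp7b1, an oxysterol hydroxylase, rose by 1.27 in F WT (edgeR adjusted p = 0.0171). Cyp21a1 was at 1.94 without passing the test (edgeR adjusted p = 0.0517).

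Known targets of the receptors moved in both directions, as did all genes, of which 43.1% were called in F WT and 10.4% in F KO. Of 18 tested glucocorticoid receptor targets, 7 rose and 7 fell in F WT, with a median log2 fold change of -0.11 beside -0.024 for all genes, and 3 rose and 1 fell in F KO. Errfi1, a feedback inhibitor of EGF receptor signalling, rose by 1.75 (edgeR adjusted p = 4e-05) and the cell cycle inhibitor Cdkn1a by 1.20 (adjusted p = 4.92e-05), whereas the repressor Bcl6 fell by 1.36 (adjusted p = 4.44e-05). Of 11 mineralocorticoid receptor targets, 3 rose and 6 fell in F WT (median -0.53), and 0 rose and 2 fell in F KO. Atp1b1, a subunit of the sodium pump, fell by 2.37 (edgeR adjusted p = 6.83e-06), Orm1 fell by 3.08 (adjusted p = 2.88e-05) and Scnn1b, a subunit of the epithelial sodium channel, rose by 1.68 (adjusted p = 0.000454). Of 9 tested estrogen receptor targets, 3 rose and 5 fell in F WT (median -0.61), and 1 rose and 3 fell in F KO. The secretory protein gene Ltf fell by 3.82 (edgeR adjusted p = 7.67e-07), the protease gene Ctsd rose by 1.37 (adjusted p = 2.77e-06) and the kinase gene Sgk3 fell by 0.75 (adjusted p = 0.00075). In M WT and M KO cultures edgeR called none of the genes of these lists, where it called none at all.

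**Figure D4:**
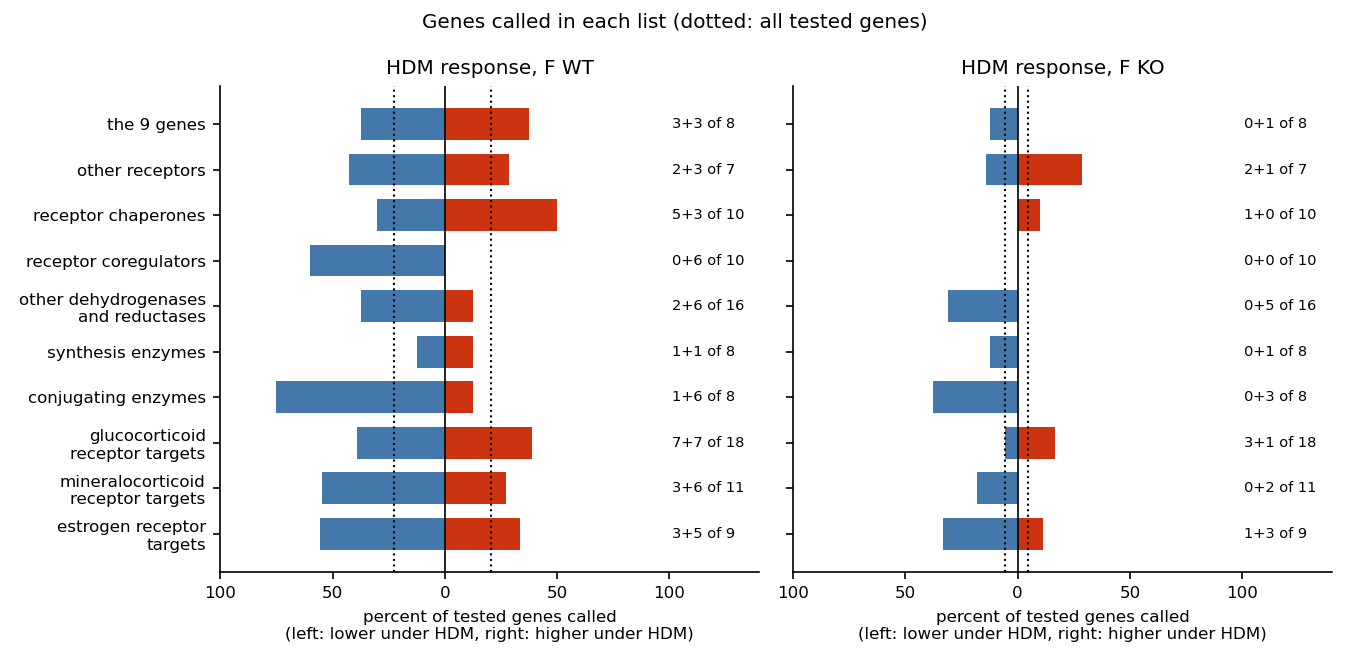
Percent of the tested genes of each list called higher (right, red) or lower (left, blue) with HDM in F WT and F KO cultures, at an edgeR adjusted p under 0.05. Dotted lines are the percent of all 15993 tested genes called in each direction, 20.6% and 22.4% in F WT and 4.63% and 5.77% in F KO, and the text at the right gives genes higher plus genes lower of those tested.

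The genes whose levels followed each member most closely over the 16 libraries were ranked by Pearson r of log2 CPM among 13008 genes, as a description over libraries that share groups, depth and culture. For Nr3c2 they were its coactivator Ncoa1, also in the coregulator list, at r = 0.987, and Tirap at 0.983. For Nr3c1 they were Rbm47 at 0.968 and Klhl24 at 0.967, and for Hsd17b11 they were St3gal5 at 0.973 and Bphl at 0.969. Esr1 was followed by Mapre2 at 0.946 and St14 at 0.937, and Hsd11b2 by Peak1 at 0.930 and Shroom4 at 0.926. Values were lower for Hsd11b1, with the interferon-induced Gbp2 at 0.872 and Sdk2 at 0.869. Srd5a1 was followed by 2 genes of stratified epithelium, Pkp1 at 0.906 and the basal keratin Krt14 at 0.894. Fkbp5 was followed by Cdc6 at 0.916 and Mcm3 at 0.911, both of which act in the licensing of DNA replication.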

How the data were processed

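RNA of 16 MTEC libraries was sequenced, 2 labelled biological replicates for each of 8 groups. Whether they came from separate animals is not stated, so p-values measure the spread between these cultures. A table of whole-number read counts for each Ensembl gene and library was deposited, with no normalization. The submitters' processing notes name Trimmomatic 0.36, STAR 2.5.2b, featureCounts, Subread 1.5.2, DESeq2 and GRCm38, with no role or order. The RNA was enriched for mRNA, randomly primed and amplified by PCR. Strandedness of counting and molecular identifiers are not given in the sources used here. Columns whose names carry no replicate number were taken as replicate 1.

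Symbols, positions and exons came from GENCODE M21 (GRCm38): 49056 of 49315 identifiers matched, and the other 259 carried 0.0106% of counts. The table was analysed in R 4.3.3 with edgeR 4.0.16: filterByExpr by group, TMM scaling, and a quasi-likelihood fit of the 8 group means to 15993 genes. CPM are counts per 1000000 of TMM-scaled library size. A gene was called at a Benjamini-Hochberg adjusted p under 0.05 over all tested genes, two-sided, in each of 16 comparisons: 4 HDM responses, 4 sex differences, 4 genotype differences and 4 differences of responses. Levels are given as mean and single values, and a library with 3 counts or fewer was at the floor.

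The 9 genes, the 9 other lists and the marker lists were chosen with earlier results of these data known. All members are named. From other lists the 3 genes with the smallest p in the F WT HDM response are named, and for each tested member the 2 genes with the most similar levels (log2 CPM with a pseudocount of 0.5). The latter were ranked among tested genes whose mean CPM, taken without the pseudocount, had a log2 of at least 0. Some genes that these rules choose are not reported here. Cyp11a1, Cyp17a1, Cyp19a1 and single cell type markers were named after their values were seen. Alternatives were DESeq2 1.42.0, other scalings, filters and floors, only the compared libraries, replicate blocks and leaving out each library. The fits were tested on simulated data. Where 1 library of a group was left out, its partner was assumed to vary like the other groups.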

Additional observations from a re-analysis of the deposited data

Results flagged for a closer look

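Results listed here are responses to HDM that differed between the sexes or the genotypes by a test of the difference itself, with the edgeR quasi-likelihood test. Between F WT and M WT cultures, the difference was -0.92 for Nr3c2 (adjusted p = 0.00714), 2.66 for Hsd11b1 (adjusted p = 0.0291), 2.17 for Hsd11b2 (adjusted p = 0.0347) and -0.40 for Hsd17b11 (adjusted p = 0.0286) on the log2 scale. Of these, the one for Nr3c2 held without any 1 library. Between F KO and M KO cultures it was -0.58 for Hsd17b11 (adjusted p = 0.0223). Between F KO and F WT cultures it was 0.91 for Nr3c2 (adjusted p = 0.0187). In F KO, Lman1 was also higher in the HDM than in the naive libraries, so HDM and Lman1 level cannot be told apart there. Each group held 2 libraries.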

How the results depend on the processing

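Single genes were followed for 29 results, those called in the edgeR fit of all 16 libraries and some uncalled ones. The uncalled ones were Fkbp5 in the genotype difference of HDM females and the sex difference of HDM KO. Nr3c2 in the HDM response of F KO and the genotype difference of HDM males was also among them. None of the 29 changed direction under any alternative run. A gain of a call could be counted only for the uncalled ones. Of 242 values of single genes under other settings 5 lost and 9 gained a call, and of 464 values with 1 library left out 47 lost and 8 gained one. Without the filter on low counts, 2 members were called in the HDM response of F KO, 1 in the sex difference of naive KO, 5 in that of HDM KO, 1 and 2 in the genotype difference of naive and HDM males, 3 in the difference of responses between KO sexes, and 5 and 1 in that between genotypes of females and males. With only the compared libraries, 2 were called in the HDM response of F KO, 5 in the sex difference of HDM KO, 1 in the difference of responses between WT sexes and 2 in that between female genotypes. Under that setting Fkbp5 joined the calls of the HDM response of F KO, and Hsd11b1 left those of the sex difference of HDM WT. Hsd11b2 left and Fkbp5 joined the calls of the genotype difference of HDM females. The cause of these shifts was not tested. With 1 library left out, counts ranged from 5 to 6 for the HDM response of F WT, 0 to 1 for F KO, 2 to 5 and 2 to 4 for the sex difference of HDM WT and KO, and 1 to 5 for the genotype difference of HDM females. They ranged from 1 to 4 and 0 to 2 for the difference of responses between WT and KO sexes and from 0 to 2 between female genotypes, and were 0 throughout in the other 8 comparisons.

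Nothing in the labels ties replicate numbers to a shared pool or day. Across genes, the replicate differences of compared groups correlated between -0.184 and 0.496. With replicate number as a block 5 members were called in the genotype difference of HDM females, Fkbp5 joining at an adjusted p of 0.0414, and every other count was as without it. With a block within each sex and genotype, 2 were called in the difference of responses between female genotypes and the other counts were the same. Crossing the numbers, an alternative chosen after seeing the data, left 0 calls in the HDM response of M KO and in the sex difference of naive KO. Floors of 1 and 10 counts were also tried. Depth limits Esr2, Hsd11b1, Hsd11b2 and Esr1 most.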
